A study of Arabidopsis thaliana with 16 samples.

Results

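The comparison asks whether roots that carry both mctp alleles differ from what the single mutants add up to. For each gene the interaction was computed on log2(FPKM + 1) as double minus mctp3-2 minus mctp4-1 plus wild type (WT), with the replicate number as a block, so that 0 means that the changes of the single mutants add up to that of the double. All 16 libraries of the series entered, 4 for each genotype. The genes were those with an FPKM, the fragment count scaled by transcript length and library size, of at least 1 in at least 4 libraries, which left 19239 of 33560. Genes whose additive expectation fell below 0 were set apart, since no library can reach a negative level.

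Messenger RNA was taken from Arabidopsis thaliana roots. Every group was in the Col-0 background and consisted of untreated seedlings 5 days old, raised on MS plates in long days. The groups were WT, the mctp4-1 mutant of the Salk_089046C line, the mctp3-2 mutant of the GABI_285E06 line, and the mutant with both alleles, called double here. Each allele is thus represented by 1 insertion line, and the double carries those same alleles. Whether replicates are separate cultures is not stated, so the spread behind each p-value is that among libraries and could be partly technical. Whole roots were used, so fewer cells of a type and less RNA per cell cannot be told apart.

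MCTP3 and MCTP4 belong to the multiple C2 domain and transmembrane region proteins, which sit in the endoplasmic reticulum at plasmodesmata and tether it to the plasma membrane. Plasmodesmata are the membrane-lined channels through which plant cells exchange metabolites, proteins and RNA. Related proteins can stand in for each other, and such overlap can appear as an interaction in the double. An interaction alone does not tell how it arose, which was not tested.

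Of 19239 genes, 10 were called for the interaction at a Benjamini-Hochberg adjusted p under 0.05 in limma, which is 0.052% of those tested. The estimate was above 0 for 7 of them (0.0364%) and below 0 for 3 (0.0156%). Those above 0 include AT5G24240 and AT4G08093, whose additive expectation below 0 fixes the sign of the estimate. With the genes set apart left out, 8 calls remained, 5 above 0 and 3 below. HOL2 and MRD1 were near 0 FPKM in WT and in both single mutants and above 8 FPKM in each double library. FSD1, AT2G41650 and AT3G45160 were lower in double than in each other genotype, and neither single mutant was called against WT. AT5G24240 and AT4G08093 were low in all 3 mutant genotypes, and double was not called against either single mutant. AT5G35935 was low in mctp3-2 and intermediate in double, while the noncoding RNA loci AT4G04223 and AT5G38005 had lower means in the single mutants than in double. Left out in turn, replicate number 3 and replicate number 4 each brought the calls to 5, and single libraries left out gave 8 to 12.

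Upstream sequences are shown for HOL2, MRD1 and FSD1, the genes with an established symbol among those high or low in double with neither single mutant called against WT. They are the 250 bases before the annotated start in the RefSeq TAIR10.1 assembly, written 5′ to 3′ on the strand of the gene. Capitals mark GTAC, the core of the copper response element bound by SPL7, and TTGAC in either orientation (TTGAC or GTCAA), the core of the W box bound by WRKY factors.
HOL2 (chr2:18191349-18191598, minus strand): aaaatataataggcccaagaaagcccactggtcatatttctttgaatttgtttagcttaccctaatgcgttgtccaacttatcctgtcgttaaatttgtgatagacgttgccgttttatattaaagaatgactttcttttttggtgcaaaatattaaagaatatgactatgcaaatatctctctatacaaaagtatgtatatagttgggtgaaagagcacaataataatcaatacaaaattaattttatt
MRD1 (chr1:19964713-19964962, minus strand): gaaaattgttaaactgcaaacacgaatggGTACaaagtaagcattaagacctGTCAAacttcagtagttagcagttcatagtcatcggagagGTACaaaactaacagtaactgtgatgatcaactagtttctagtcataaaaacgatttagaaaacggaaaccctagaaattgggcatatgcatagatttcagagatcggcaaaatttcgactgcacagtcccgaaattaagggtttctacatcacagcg
FSD1 (chr4:12887012-12887261, minus strand): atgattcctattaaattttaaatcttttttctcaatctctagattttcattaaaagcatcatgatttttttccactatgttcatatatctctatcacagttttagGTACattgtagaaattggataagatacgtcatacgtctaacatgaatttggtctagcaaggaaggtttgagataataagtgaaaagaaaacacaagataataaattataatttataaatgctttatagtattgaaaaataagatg
The HOL2 stretch holds neither word. MRD1 holds GTAC at 2 places and TTGAC at 1 place, and FSD1 holds GTAC at 1 place. Among 19167 upstream stretches of the same length from genes tested, 34.5% hold GTAC at least once, 7.72% at least 2 times, and 45.2% hold TTGAC at least once. The words are thus common, and a match describes these letters only.

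The noncoding loci AT4G04223 and AT5G38005 are shown for another reason: they are on different chromosomes but share upstream sequence. Capitals mark bases that are identical in the local alignment of the pair.
AT4G04223 (chr4:2036261-2036510, plus strand): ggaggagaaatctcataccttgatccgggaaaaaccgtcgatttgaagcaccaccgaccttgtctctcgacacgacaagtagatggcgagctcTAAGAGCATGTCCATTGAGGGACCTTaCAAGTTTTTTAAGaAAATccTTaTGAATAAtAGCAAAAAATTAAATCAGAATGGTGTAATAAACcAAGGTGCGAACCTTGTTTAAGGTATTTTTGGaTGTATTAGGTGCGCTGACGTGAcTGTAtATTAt
AT5G38005 (chr5:15154817-15155066, plus strand): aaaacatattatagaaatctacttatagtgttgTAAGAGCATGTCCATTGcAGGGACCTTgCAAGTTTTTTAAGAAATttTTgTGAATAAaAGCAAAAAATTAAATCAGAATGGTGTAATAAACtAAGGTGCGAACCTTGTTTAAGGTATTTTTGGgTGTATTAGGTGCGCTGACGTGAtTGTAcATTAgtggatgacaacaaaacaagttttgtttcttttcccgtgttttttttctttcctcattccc
Of 155 aligned base pairs 146 are identical (94.2%), with 9 mismatches and 2 gapped positions. The aligned stretch runs from 157 to 2 bases before the start of AT4G04223 and from 217 to 62 bases before that of AT5G38005. This likeness was noticed after the values were seen.

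Most genes lay near the additive expectation. The median interaction over all genes was −0.05 on the log2 scale with a median standard error of 0.15, and 12100 genes (62.9%) lay below 0 against 7139 (37.1%) above. Median-of-ratios scaling moved the median to −0.0045, so counts of list members below 0 have to be read against the share of all genes. Without adjustment 925 genes (4.81%) had p under 0.05, 301 above 0 (1.56%) and 624 below 0 (3.24%). An estimate of 1 or more in size occurred in 122 genes, of which 114 were not called, and 78 of these had a standard error above 0.5. AT1G32670, with the estimate farthest from 0, was listed at 0 in 12 of 16 libraries and at 5993 to 11516 FPKM in the other 4, none of them double. For comparison, limma called 104 genes in double against WT (0.541%), 5 in mctp4-1 (0.026%), 11 in mctp3-2 (0.0572%), 60 in double against mctp4-1 (0.312%) and 53 in double against mctp3-2 (0.275%). These comparisons share libraries with one another and with the interaction.

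**Figure D1:**
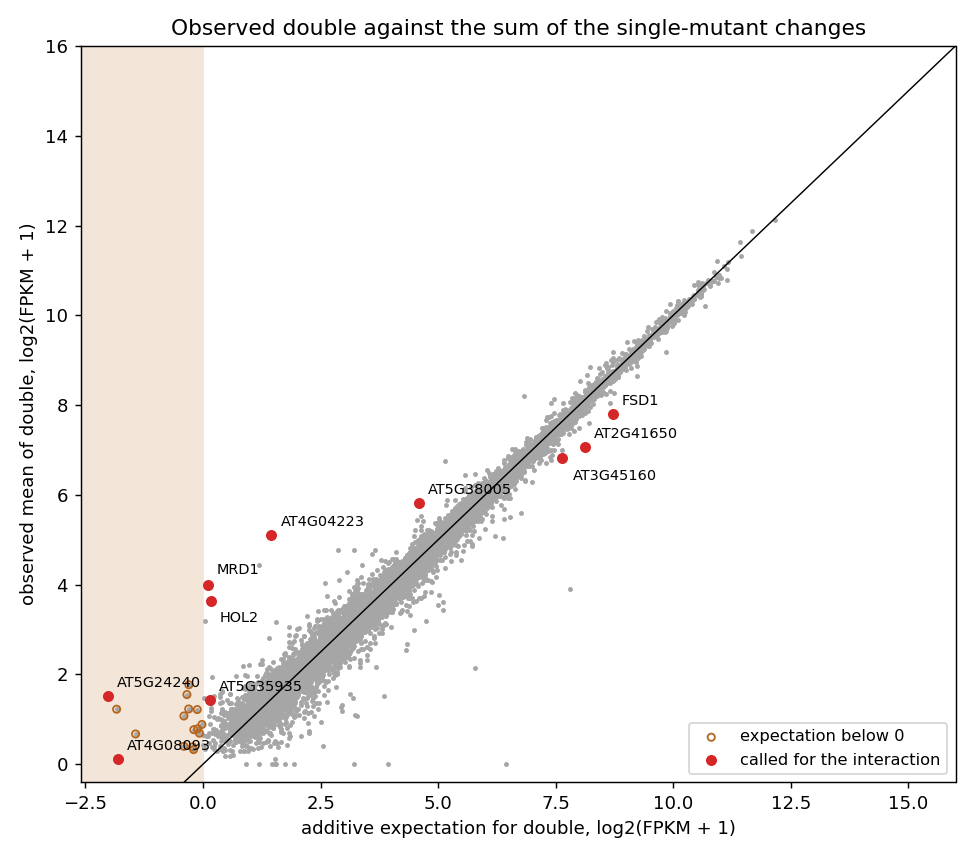
Observed mean of the 4 double libraries (y axis) against the additive expectation from WT and the single mutants (x axis), both as log2(FPKM + 1), for 19239 genes. The diagonal is additivity, the shaded area holds the 16 genes with an expectation below 0, and red points are the 10 called genes, 7 above the diagonal and 3 below it.

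The FPKM of a library added up to 887430 to 1016221, with 18556 to 18786 genes at 1 FPKM or more. Loci not annotated as protein-coding, among them pseudogenes and loci without an annotation match, held 1.79 to 5.04% of the FPKM in WT. Their share was 1.62 to 2.65% in mctp4-1, 1.46 to 3.12% in mctp3-2 and 1.36 to 1.96% in double. They include AT1G32670, at up to 11516 FPKM in a library and at 0 in every double library. Root markers were present, with 11 measured genes of the Casparian strip and endodermis and 16 of root hairs. The summed level of all 21 photosynthesis genes of the list was 251 to 968 FPKM, highest in double replicate 2. The median interaction of the 16 measured among these green tissue genes was 0.09. It was −0.51, 0.87, 0.14 and −0.04 for replicate numbers 1 to 4, so number 2 stood apart. The part of green tissue in the results below was not tested, but leaving out double replicate 2 ended no call other than that of AT5G38005.

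HOL2 (AT2G43920, minus strand of chromosome 2, 18189004 to 18191348, 6 transcripts with 6 to 8 exons) encodes a methyltransferase related to HOL1, an enzyme that methylates halides and thiocyanate. Its FPKM were 0.144, 0, 0.935 and 0.245 in WT, 0.0652, 0.257, 0.365 and 0.199 in mctp4-1, and 0.105, 0.236, 0.243 and 0.184 in mctp3-2. In double they were 16.2, 8.87, 10.3 and 11.6. No library of the other genotypes reached 1 FPKM, so HOL2 passed the filter of 1 FPKM in 4 libraries only through double. The filter by itself thus places the 4 double libraries above all 12 others, and this separation is no added result. The interaction was 3.47 ± 0.27 (SE, adjusted p = 2.11e-05 in limma), above 0 for 4 of 4 replicate numbers. Double exceeded mctp4-1 by 3.36 on the log2 scale (95% interval 2.95 to 3.77) and mctp3-2 by 3.39 (2.98 to 3.80), whereas the single mutants were at −0.08 ± 0.19 and −0.11 ± 0.19 from WT.

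MRD1 (AT1G53480, minus strand of chromosome 1, 19963047 to 19964712, 2 transcripts with 1 to 2 exons) is named for its lowered transcript in mto1, a mutant that accumulates methionine. Its FPKM were at most 0.766 in WT, at most 0.411 in mctp4-1 and at most 0.917 in mctp3-2. The double libraries were at 15, 19.5, 12.9 and 12.9 FPKM. Like HOL2, MRD1 passed the filter only through double, which by itself places all 4 double libraries above the 12 others. The interaction was 3.88 ± 0.33 (SE, adjusted p = 3.8e-05 in limma), 4.82, 4.98, 2.73 and 3.01 for replicate numbers 1 to 4. The gene overlaps HEI10, a meiotic crossover gene on the other strand, over 1446 bases, and whether reads were assigned by strand is not given in the sources used here. It also overlaps the noncoding RNA locus AT1G07887 over 1039 bases, and 558 bases have matches of 91.9% identity at AT1G06327 and AT1G06333; these loci were not among the genes tested, and reads could be divided with them. HEI10 was at 1.87 FPKM in WT, 1.97 in mctp4-1, 2.13 in mctp3-2 and 2.73 in double, with an interaction of 0.21 (adjusted p = 0.959). Estimates for genes near 0 FPKM depend on the pseudocount: with 0.1 in place of 1 that of MRD1 was 6.72 and its call was lost (adjusted p = 0.0768 in limma), and that of HOL2 was 5.36 and stayed called (adjusted p = 0.00732).

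The relatives of HOL2 showed a different pattern. HOL1 (AT2G43910) had 397 ± 118 FPKM (SD, n = 4) in WT, 398 ± 112 in mctp4-1, 386 ± 128 in mctp3-2 and 355 ± 78.5 in double, with an interaction of −0.09 (95% interval −0.33 to 0.15, adjusted p = 0.962). HOL3 (AT2G43940) was at 47.1 ± 2.37, 50.6 ± 3.24, 49.4 ± 5.95 and 51.0 ± 3.89 FPKM in the same order, with an interaction of −0.05 (−0.31 to 0.20, adjusted p = 0.981). Neither was called, and both intervals lie far below the estimate for HOL2.

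In all, 33 genes (0.172%) had every double library above the 12 others, and of these 2 were called, HOL2 and MRD1. A further 31 genes (0.161%) had every double library below the 12 others, of which 2 were called, AT2G41650 and AT3G45160. WT lay above the 12 mutant libraries in 4 genes (0.0208%), 2 of them called, AT5G24240 and AT4G08093, and below them in 7 genes (0.0364%), none called. HOL2 and MRD1 passed the filter of 1 FPKM in 4 libraries only through double, and AT4G08093 only through WT. For these genes the filter fixed the separation, so it does not add to their calls.

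**Figure D2:**
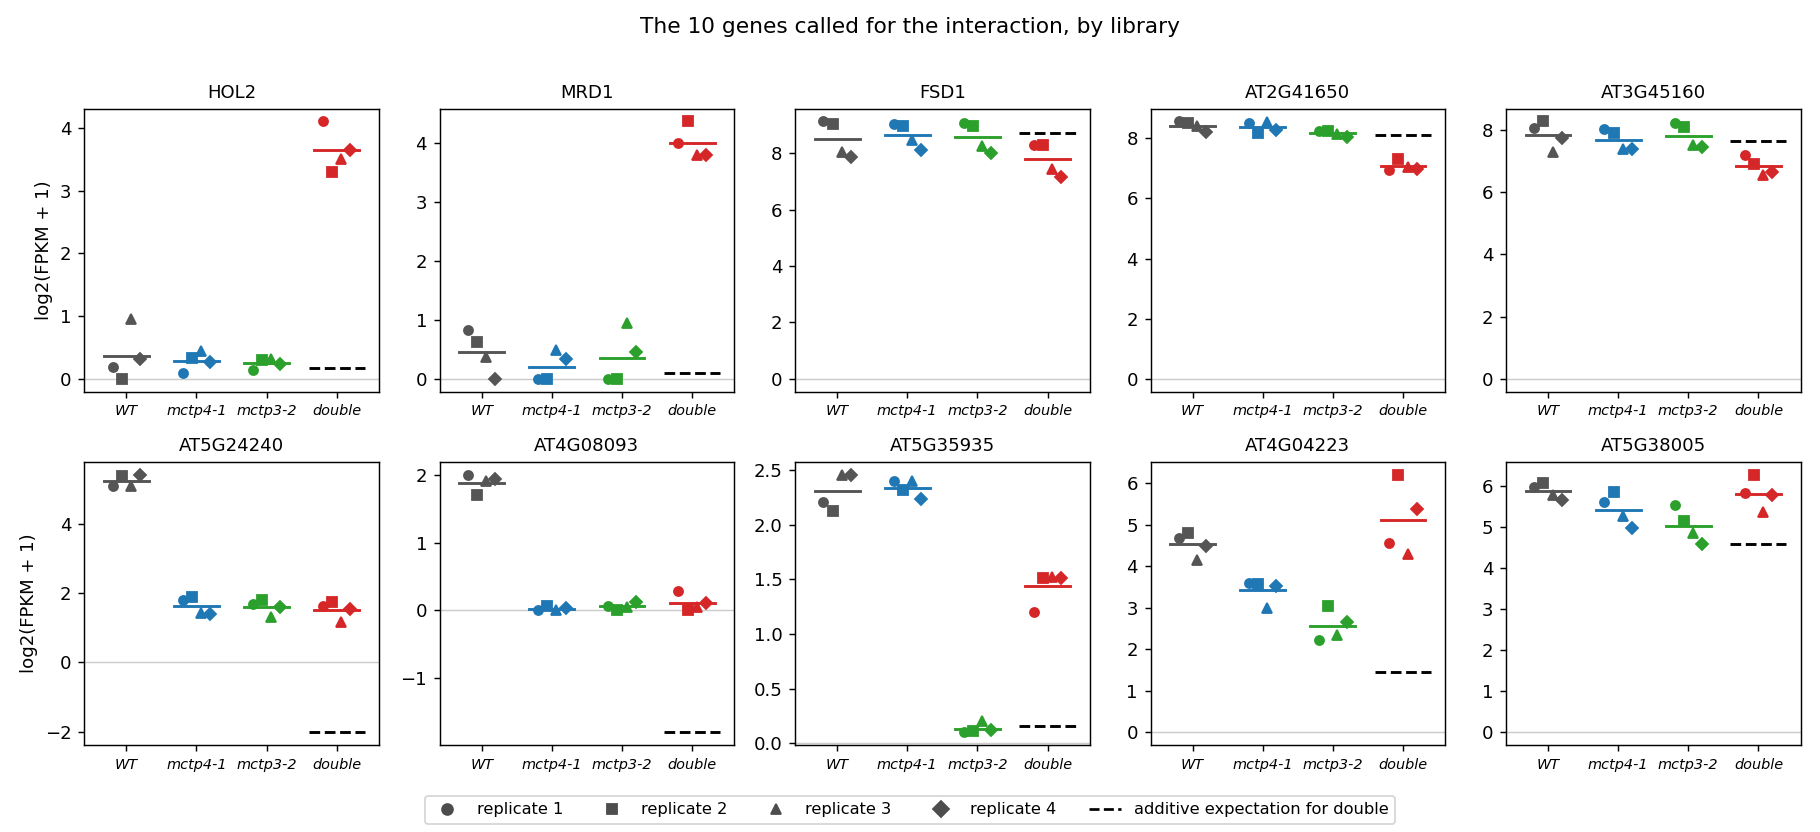
Level of the 10 called genes in each library as log2(FPKM + 1), on an axis of its own for each gene. Symbols are the 4 replicate numbers, solid bars the means of a genotype, and the dashed line the additive expectation for double, which HOL2 and MRD1 exceed by 3.47 and 3.88 and which is negative for AT5G24240 and AT4G08093.

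FSD1 (AT4G25100, minus strand of chromosome 4, 12884300 to 12887011, 5 transcripts with 7 to 8 exons) encodes the iron superoxide dismutase, whose transcript is high when copper is scarce. Its FPKM were 557, 517, 262 and 231 in WT replicates 1 to 4, 527, 498, 355 and 273 in mctp4-1, and 536, 503, 307 and 256 in mctp3-2. The double libraries had 311, 315, 172 and 141. Replicates 1 and 2 were higher than 3 and 4 in every genotype, so the groups overlap, but within each number double was the lowest. The interaction was −0.92 ± 0.11 (SE, adjusted p = 0.0022 in limma), and −0.70, −0.62, −1.27 and −1.09 by number. Without the replicate block the same estimate was not called (adjusted p = 0.9999). The call was also lost without replicate number 3 or 4 (adjusted p = 0.102 and 0.186).

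AT2G41650 (chromosome 2, 17362645 to 17364518 on the plus strand, 1 transcript of 2 exons) encodes an uncharacterized protein. Its FPKM were 377, 366, 336 and 298 in WT, 364, 290, 369 and 312 in mctp4-1, and 302, 301, 281 and 263 in mctp3-2. In double they were 122, 159, 132 and 124, below all other libraries. The interaction was −1.05 ± 0.13 (SE, adjusted p = 0.0028 in limma). The call was lost without replicate number 3 or 4 (adjusted p = 0.16 and 0.186). The gene overlaps AT2G41640, a glycosyltransferase gene on the same strand, over 1144 bases. AT2G41640 was at 8.54 FPKM in WT, 9.84 in mctp4-1, 11.1 in mctp3-2 and 22.4 in double. Its estimate thus had the other sign, at 0.77, and was not called (adjusted p = 0.441), although its rise from WT to double was (1.31, adjusted p = 2.70e-04). How fragments in the shared bases were divided is not given in the sources used here. A stretch of 784 bases of AT2G41650 also has a match of 98.2% identity at AT5G18937, which was not among the genes tested.

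AT3G45160 (chromosome 3, 16533428 to 16534265 on the minus strand, 1 transcript of 2 exons) encodes a putative membrane lipoprotein. Its FPKM were 266, 307, 156 and 211 in WT, 258, 237, 166 and 167 in mctp4-1, and 294, 269, 180 and 174 in mctp3-2. The double libraries had 146, 118, 93.1 and 98.4, again below all other libraries. The interaction was −0.82 ± 0.13 (SE, adjusted p = 0.0284 in limma), and without the block it was not called (adjusted p = 0.9999). The call was also lost when any 1 of 10 of the 16 libraries was left out, with adjusted p up to 0.1095 and estimates of −0.90 to −0.74.

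AT5G24240 (minus strand of chromosome 5, 8230916 to 8234150, 2 transcripts with 3 exons) has the annotation of a gamma-like phosphatidylinositol 4-kinase, a family named for the lipid kinases it resembles. Its FPKM were 33.1, 40.9, 33.6 and 41.7 in WT, 2.48, 2.73, 1.71 and 1.62 in mctp4-1, and 2.2, 2.46, 1.5 and 2.03 in mctp3-2. In double they were 2.08, 2.34, 1.23 and 1.89. All 12 mutant libraries were low, at 5.72, 5.50 and 5.05% of the WT mean by genotype. Double differed from mctp4-1 by −0.12 (95% interval −0.36 to 0.12, adjusted p = 0.999 in limma) and from mctp3-2 by −0.09 (−0.33 to 0.16, adjusted p = 0.960). The additive expectation was −2.02 on the log2 scale, which no level can reach. The interaction was 3.53 ± 0.16 (SE, adjusted p = 2.18e-08 in limma), and even a level of 0 FPKM in double would have left it above 0.

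AT4G08093, a transcribed pseudogene (chromosome 4, 4990153 to 4991601 on the plus strand), had the same pattern at a low level. Its FPKM were 3, 2.26, 2.77 and 2.83 in WT, and at most 0.0417 in mctp4-1, 0.0919 in mctp3-2 and 0.224 in double. It thus passed the filter only through WT. The additive expectation was −1.80 and the interaction 1.92 ± 0.19 (SE, adjusted p = 2.29e-04 in limma). Double differed from the single mutants by 0.09 (95% interval −0.20 to 0.37) and 0.05 (−0.23 to 0.34). With a pseudocount of 0.1 the interaction of AT4G08093 was 4.84 (adjusted p = 0.0488).

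These are 2 of 16 genes whose expectation lay below 0 on the log2 scale. That count depends on single libraries, being 26 without WT replicate 3 and 26 without mctp4-1 replicate 2. All 16 estimates were positive, which the choice of the genes brings about, 10 of the genes averaged under 5 FPKM in WT, and 3 had p under 0.05. The genes nearest the limit were ASN1, an asparagine synthetase, just inside at −0.02 with an interaction of 0.91, and AT1G02710 just outside at 5.22e-04 with 0.43. Taken on the FPKM scale, 41 genes fell below 0, among them these 16, and 3 of the 41 were called, AT4G04223 besides this pair. With the 16 left out, 8 calls remained, 5 above 0 and 3 below.

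AT5G35935 is a pseudogene (chromosome 5, 14083388 to 14089891 on the minus strand). Its FPKM were 3.62, 3.38, 4.49 and 4.48 in WT and 4.27, 3.98, 4.27 and 3.70 in mctp4-1. They were 0.0701, 0.0777, 0.153 and 0.0839 in mctp3-2, and 1.3, 1.85, 1.87 and 1.85 in double. The double libraries lay between those of the single mutants with no overlap. The interaction was 1.28 ± 0.17 (SE, adjusted p = 0.00383 in limma), and the difference of double from mctp3-2 was 1.3 (95% interval 1.05 to 1.56, adjusted p = 6.01e-05). With a pseudocount of 0.1 the interaction of AT5G35935 was 3.19. Its call was lost without replicate number 2, 3 or 4 (adjusted p = 0.0529, 0.203 and 0.233). The next gene, AT5G35940, starts 682 bases away on the other strand and encodes a mannose-binding lectin protein. AT5G35940 was at 17.2 FPKM in WT, 18.8 in mctp4-1, 59.1 in mctp3-2 and 51.8 in double, with an interaction of −0.35 that was not called (adjusted p = 0.959). Against WT in mctp3-2, the pseudogene fell by 2.18 and AT5G35940 rose by 1.77 on the log2 scale, each with adjusted p = 6.17e-08 in limma.

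AT4G04223 (chromosome 4, 2036511 to 2037816 on the plus strand, 2 transcripts of 2 to 3 exons) is an annotated noncoding RNA. Its FPKM were 24.5, 26.8, 16.8 and 21.5 in WT, 11.1, 10.9, 6.98 and 10.5 in mctp4-1, and 3.65, 7.18, 4.09 and 5.29 in mctp3-2. The double libraries had 22.7, 72.1, 18.6 and 40.3. Both single mutants lay below every WT and every double library, and double replicate 2 was the highest. The interaction was 3.65 ± 0.31 (SE, adjusted p = 2.60e-04 in limma). Double against WT was 0.58 (adjusted p = 0.453), against mctp4-1 1.68 (95% interval 1.2 to 2.17) and against mctp3-2 2.54 (2.06 to 3.03).

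AT5G38005 (chromosome 5, 15155067 to 15156088 on the plus strand, 1 transcript of 2 exons), the locus with the similar upstream sequence, is a noncoding RNA too. Its FPKM were 61.5, 66.3, 53.7 and 49.3 in WT, 48.0, 56.8, 37.5 and 30.3 in mctp4-1, 45.3, 34.4, 28.2 and 22.9 in mctp3-2, and 55.8, 76.1, 40.0 and 54.3 in double. The groups overlap, and double exceeded both single mutants within every number. The interaction was 1.22 ± 0.19 (SE, adjusted p = 0.0316 in limma). Double exceeded mctp3-2 by 0.78 (adjusted p = 0.025), whereas its difference from mctp4-1 was not called (0.39, adjusted p = 0.505). Without the block it was not called (adjusted p = 0.9999), and leaving out any 1 of 13 of the 16 libraries ended the call, with adjusted p up to 0.139.

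The transcribed parts of this pair are also alike, and values of such copies are uncertain because reads can be divided between them. AT5G38005 matched AT4G04223 over 544 bases at 92.5% identity. AT4G04223 in turn matched AT3G56210, a protein-coding gene, over 1307 alignment positions at 99.2% identity, against a gene length of 1306 bases. AT3G56210 was at 25.4 FPKM in WT, 27.2 in mctp4-1, 23.3 in mctp3-2 and 29.5 in double, with an interaction of 0.23 (adjusted p = 0.959). Another match, AT5G19630, had genotype means between 15.4 and 17.9 FPKM, with an interaction of −0.17 (adjusted p = 0.959). Reads shared by these loci could not be examined from gene-level FPKM.

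Neither mutated gene was called for the interaction. MCTP4 had 26.3 ± 3.42 FPKM (SD, n = 4) in WT, 4.33 ± 1.29 in mctp4-1, 28.6 ± 1.50 in mctp3-2 and 3.08 ± 0.166 in double. Its interaction was −0.47 ± 0.18 (95% interval −0.85 to −0.09, adjusted p = 0.942 in limma), below 0 for 4 of 4 numbers, with an interval that does not reach 0, but not called after adjustment. MCTP3 was at 6.39 ± 0.236, 6.68 ± 1.1, 13.8 ± 1.78 and 13.8 ± 0.847 FPKM in the same order, with an interaction of −0.04 (−0.37 to 0.29, adjusted p = 0.989). MCTP3 transcript was higher, not lower, in the libraries labelled mctp3-2 and double, and gene-level FPKM cannot show which part of the gene it covers. Every direction stated for either genotype refers to libraries as labelled.

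Of the 11 measured MCTP genes 3 lay above 0 and 8 below, none called, with a median of −0.08. Of all genes 62.9% lay below 0 and 0.052% were called, and these shares apply to the whole paragraph. For the other plasmodesmal proteins, such as the PDLP receptor-like and the callose-binding PDCB proteins, 5 of 17 lay above 0 and 12 below, with a median of −0.05, the same as over all genes. PDLP4 was farthest from 0, at −0.80 ± 0.22 (SE, adjusted p = 0.540 in limma). Of 8 measured genes of endoplasmic reticulum to plasma membrane contact and phosphoinositide enzymes, only AT5G24240 was called, whose expectation below 0 fixes the sign. SYT1, a synaptotagmin of these contacts, was at −0.19 and VAP27-1 at 0.13, both with adjusted p = 0.959. The 4 measured callose synthases had a median of −0.21, and 0.10, −1.20, 0.23 and −0.01 for replicate numbers 1 to 4, so the sign differed between numbers and number 2 was far below the others.

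Aliphatic glucosinolates are sulfur-containing defence compounds that plants of the mustard family build from methionine by chain elongation, core structure synthesis and side-chain modification. All 21 measured genes of this list had an interaction below 0, against 62.9% of all genes, and 15 had an unadjusted p under 0.05, against 3.24% of all genes on that side. None was called after adjustment over all genes. The median was −0.64, and it was −0.51, −1.02, −0.42 and −0.58 for replicate numbers 1 to 4. In 16 of 21 genes the estimate was below 0 for all 4 numbers, compared with 10.6% of all genes that kept 1 sign in all 4. In the comparisons with WT, double was called lower for 9 of 21 members, where 0.541% of all genes were called in either direction. Each single mutant was called for 0 of 21, where 0.026% of all genes were called in mctp4-1 and 0.0572% in mctp3-2, so no call would be the usual count for a list of this size. Number 2 had the lowest median, and without double replicate 2, the library with the highest green tissue sum, the median was −0.46. The part of that library's makeup in the result was not tested.

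IMD1, an isopropylmalate dehydrogenase of chain elongation, had the smallest p of the list. Its FPKM were 117, 125, 63.9 and 82.9 in WT, 113, 117, 86.4 and 92.0 in mctp4-1, and 122, 121, 83.8 and 80.4 in mctp3-2. In double they were 55.1, 39.9, 47.3 and 47.6, below all other libraries. The interaction was −1.18 ± 0.20 (SE), just outside the threshold (adjusted p = 0.0612 in limma), and it was called in 6 of 35 alternative settings. BCAT4, the aminotransferase that opens the pathway, had 37.2 ± 18.9 FPKM (SD, n = 4) in WT and 11.5 ± 2.35 in double, with an interaction of −1.48 ± 0.34 (SE, adjusted p = 0.381). MAM1, a methylthioalkylmalate synthase, was at 11.8 ± 2.56 FPKM in WT, 12.9 ± 2.5 in mctp4-1, 10.5 ± 0.647 in mctp3-2 and 5.60 ± 1.45 in double, with −0.96 ± 0.21 (SE, adjusted p = 0.261). CYP83A1, a cytochrome P450 of the core structure steps, was at 27.6 ± 6.94, 29.2 ± 1.98, 28.9 ± 4.65 and 11.3 ± 3.92 FPKM in the same order, with −1.45 ± 0.33 (SE, adjusted p = 0.381). MYB28, the transcription factor that activates this pathway, had −0.40 (adjusted p = 0.959), and IMD3 was nearest 0 at −0.15.

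**Figure D3:**
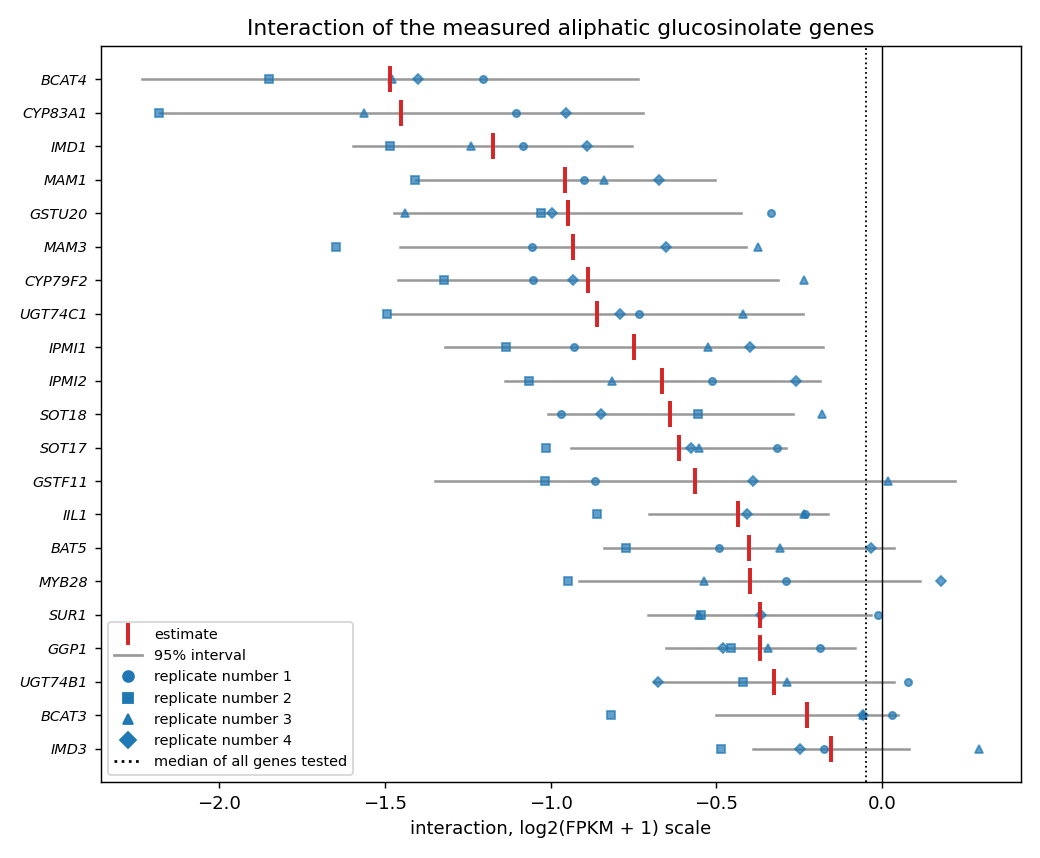
Interaction of the 21 measured aliphatic glucosinolate genes on the log2(FPKM + 1) scale (x axis). Red bars are estimates with grey 95% intervals, blue symbols the 4 replicate numbers, and the dotted line the median of all genes at −0.05; every estimate lies below 0, from −1.48 for BCAT4 to −0.15 for IMD3.

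The other sulfur genes lay below 0 as well, by less. All 11 measured genes of sulfur limitation were below 0, with a median of −0.31, and 3 of 11 had p under 0.05. Of all genes 62.9% lay below 0 and 3.24% did so with p under 0.05. The list median was −0.28, −0.44, −0.10 and −0.31 for replicate numbers 1 to 4. In 2 of these 11 genes the estimate was below 0 for all 4 numbers, where 10.6% of all genes kept 1 sign. The same shares of all genes apply to the lists that follow. APR1, an adenylylsulfate reductase, was at −0.53, the sulfate transporter SULTR1;2 at −0.38 and EIL3, also known as SLIM1, a regulator of the sulfur response, at −0.31, none called (adjusted p = 0.959, 0.959 and 0.950 in limma). All 11 measured genes of indole glucosinolates and camalexin were below 0, with a median of −0.18. That median was 0.17, −0.17, −0.42 and −0.47 for replicate numbers 1 to 4, so its sign differed between numbers. Only 1 of these 11 genes was below 0 for all 4 numbers. Of the copper status genes 9 of 12 were below 0, not far from the share of all genes. FSD1 alone was called, where 0.052% of all genes were. Their median was −0.33, but −0.01, −0.25, −0.32 and −0.02 for replicate numbers 1 to 4, so near 0 in numbers 1 and 4. ZIP2, a metal transporter, was at −0.41 and FRO4, a metal reductase of the copper response, at −0.70, not called (adjusted p = 0.810 and 0.942). CSD1, a copper and zinc superoxide dismutase whose level falls when copper is scarce, was at 0.21, and SPL7, the copper regulator, at −0.06.

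Flavonoid genes lay on the other side, 6 of 6 above 0, against 37.1% of all genes, with a median of 0.19. The sign of the list median differed between numbers, at 0.34, 0.56, −0.07 and 0.10. TT4, chalcone synthase, was at 0.33 and TT5, chalcone isomerase, at 0.32, neither called (adjusted p = 0.959 for both). FLS1, flavonol synthase, was at 0.19 and F3H, a hydroxylase, at 0.18. Of the touch and rapid wounding genes 9 of 11 were below 0, against 62.9% of all genes, with a median of −0.35. CBF2, a transcription factor of the cold response, was at −1.03, ERF6 at −0.42, ORA47, a jasmonate-related factor, at −0.57, and TCH3, a calmodulin-like protein, at 0.41, none called (adjusted p = 0.959 for each). This list's median was 0.12 and −0.13 for numbers 1 and 2 and −0.73 and −0.46 for numbers 3 and 4, so it rested on the latter. Heat shock genes (10 of 10 below 0, median −0.28) and genes of the unfolded protein response (12 of 12 below 0, median −0.17) held no called member. Of them 0 and 1 had p under 0.05 below 0, against 3.24% of all genes. The median of the unfolded protein response was −0.04, −0.45, 0.12 and −0.36 for numbers 1 to 4. In that list 0 of 12 genes were below 0 for all 4 numbers, and 1 of 10 in the heat shock list.

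Xylem and secondary wall genes, which build the water-conducting vessels, lay near additivity. The median change from WT of 23 measured members was 0.14 in mctp4-1, 0.21 in mctp3-2 and 0.39 in double, and the median interaction was −0.01, with 11 above 0 and 12 below. XCP1, a cysteine protease of vessel cell death, was at 121 FPKM in WT, 141 in mctp4-1, 142 in mctp3-2 and 169 in double, with an interaction of 0.03 ± 0.11 (SE, adjusted p = 0.985 in limma). CESA4, a cellulose synthase of the secondary wall, was at 19.6, 23.2, 23.8 and 27.8 FPKM in the same order, with −0.02 ± 0.14 (SE, adjusted p = 0.994). The 18 measured phloem genes had a median of 0.12, with 13 above 0, against 37.1% of all genes, and 5 below, none called. That median was 0.10, −0.21, 0.22 and 0.14 for replicate numbers 1 to 4, so its sign differed between numbers. Of these 18 genes 1 was above 0 for all 4 numbers and 1 below.

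**Figure D4:**
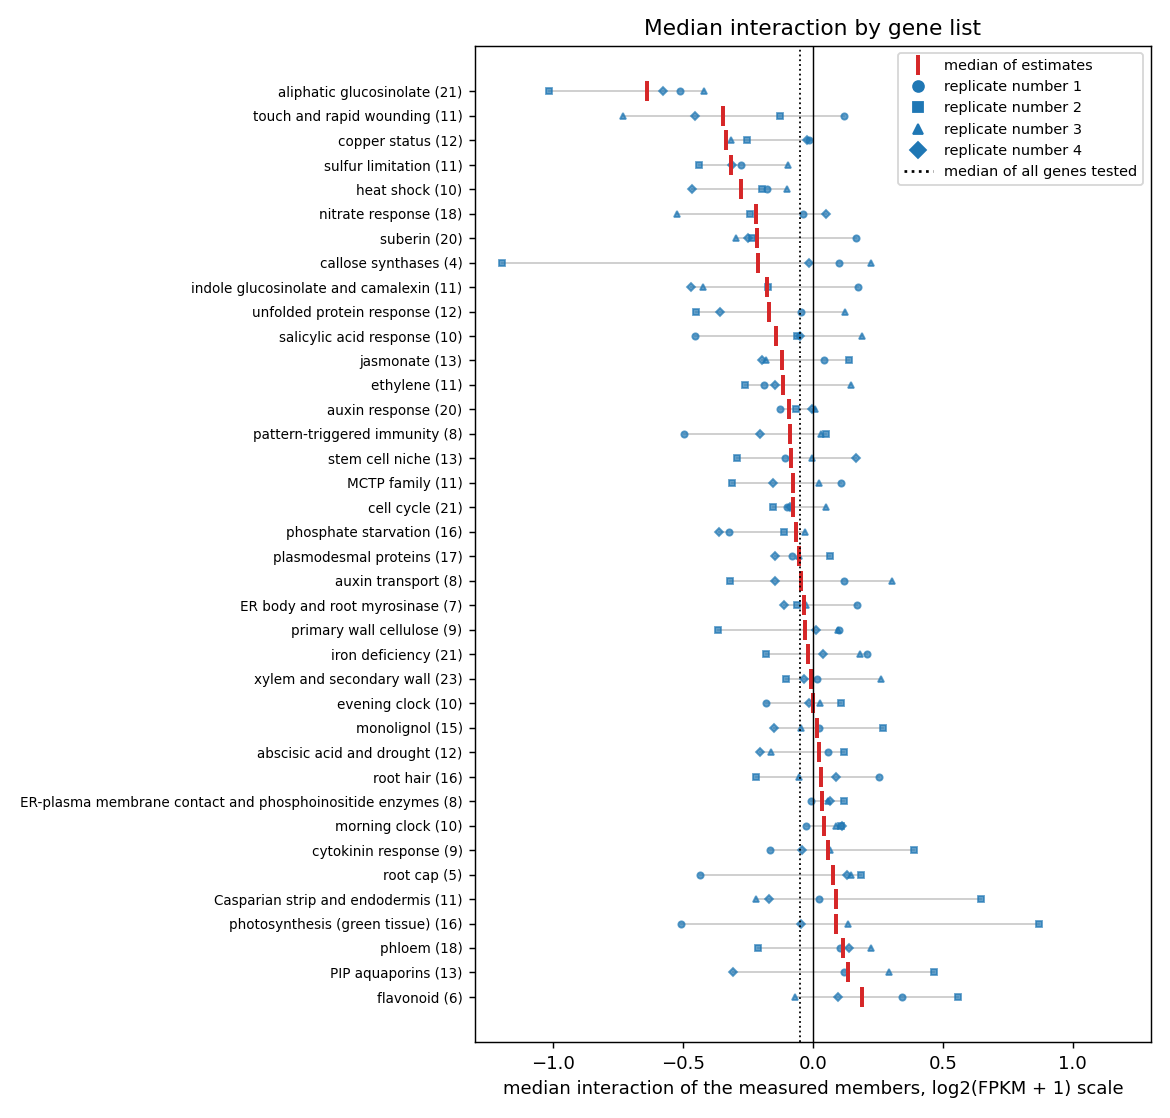
Median interaction of the measured members of 38 gene lists (number of members in brackets) on the log2(FPKM + 1) scale. Red bars are medians of the estimates and blue symbols those of the 4 replicate numbers, and the aliphatic glucosinolate list lies lowest at −0.64. The list of MRD1 and the HOL genes (median 1.71) is off the scale and not drawn. No member is near that median: MRD1 and HOL2 were at 3.88 and 3.47, HOL1 and HOL3 at −0.09 and −0.05.

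Of the 9 genes with the next smallest p besides IMD1, 6 had estimates below 0, which is near the share of all genes (62.9%). AT5G04080, a cysteine-rich stress tolerance protein, had a mean of 76.0 FPKM in WT, 66.4 in mctp4-1, 63.0 in mctp3-2 and 91.0 in double, with an interaction of 0.67 ± 0.12 (SE, adjusted p = 0.0612 in limma). AT1G67148, an uncharacterized protein, was at 58.2 ± 16.7 FPKM in mctp4-1 and between 32.8 and 40.9 FPKM in the other groups, with −0.83 (adjusted p = 0.0761). PFA-DSP2, a protein phosphatase, had −0.81, AT4G15390, an acyltransferase, −0.62, and AT5G18840, a transporter of the major facilitator superfamily, −0.68 (adjusted p = 0.136 for each). AT4G12870, a thiol reductase, was at −1.11 and AT1G49000, an uncharacterized protein, at −1.05 (adjusted p = 0.147 and 0.183). On the other side, AT2G13550, an uncharacterized protein, was at 0.75 and AT1G18320, an import protein of the mitochondrial inner membrane, at 0.80 (adjusted p = 0.148 and 0.191). Both had their lowest mean in mctp4-1, AT1G18320 at 3.82 ± 0.809 FPKM (SD, n = 4) against 6.43 ± 0.624 in WT. None of these 9 genes is a finding of the test. Each had 1 sign in all 4 replicate numbers, as 10.6% of all genes did, but choosing genes by the smallest p favours that.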

How the data were processed

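Gene-level FPKM of 16 root libraries were deposited by the authors; per the submitters' processing notes HISAT2, Cufflinks and the TAIR10 build were used, with roles, versions and counting by strand not given in the sources used here. Read counts were not used here, so the number of reads behind a value is unknown and precision is given by the 4 libraries per genotype. Columns were matched to libraries by name, with 0 left over, and 0 pairs of libraries were identical. FPKM under 1e-06 were taken as 0.

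The log2 of FPKM plus a pseudocount of 1 entered limma (version 3.58.1, R 4.3.3) with 1 mean per genotype and the replicate number as a fixed block, leaving 9 residual degrees of freedom, with trended and robust moderation of variances. Tests were 2-sided and p-values were adjusted over all 19239 genes. The fit was tested on simulated data. After subtraction of genotype means, the 24 pairs of libraries with equal numbers and different genotypes correlated at 0.203 to 0.556 (median 0.442). Pairs of different numbers within 1 and 2 or within 3 and 4 were at 0.185 to 0.524 (median 0.341). The 48 pairs that join 1 or 2 with 3 or 4 were at −0.518 to −0.186 (median −0.385). The subtraction makes the values of a genotype add up to 0, so positive correlations in the first 2 kinds of pairs bring negative ones here. The ranges of those 2 kinds overlap, so the values set 1 and 2 apart from 3 and 4 more than they pair equal numbers. The pairing thus rests mainly on equal numbers, and no label gives the meaning of a number.

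Named genes are MCTP3, MCTP4, all called genes, the next by p up to 20 in all, and up to 4 members of the 6 of 39 lists whose median lay farthest from that of all genes. Other list members are named as examples, chosen after their values were seen. The contrast, the members and the lists were chosen with earlier results of these data known. Of 565 list entries 543 were used, and 22 whose code carries another name in the annotation were left out. Positions and upstream sequences are from RefSeq TAIR10.1, to which 32814 of 33560 genes were matched by locus code; no coordinates were converted. Copies of called genes were sought with BLAST+ 2.17.0 (at least 100 bases, at least 90% identity) and aligned with Biopython 1.88. The alternatives comprised the block, left-out libraries and replicate numbers, pseudocount, filter, scaling, moderation and additivity on the FPKM scale.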

Additional observations from a re-analysis of the deposited data

Results flagged for a closer look

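Each of the 10 called genes is flagged because the effect of 1 allele differed by the state of the other, by the test of the interaction itself (limma, log2 scale). The estimates were 3.53 for AT5G24240, 3.47 for HOL2, 3.88 for MRD1, 1.92 for AT4G08093, 3.65 for AT4G04223, 1.28 for AT5G35935 and 1.22 for AT5G38005, and −0.92 for FSD1, −1.05 for AT2G41650 and −0.82 for AT3G45160. Those of AT5G24240 and AT4G08093 concern genes whose expectation lay below 0.

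Among 48 groups of 4 libraries tested, 3 had a library far from the other 3 by Dixon's 95% criterion for the gap over the range, about as many as chance alone flags at 1 in 20. AT4G04223 was at 6.98 FPKM in mctp4-1 replicate 3 against 10.5 to 11.1 in the others. AT5G35935 was at 0.153 FPKM in mctp3-2 replicate 3 against 0.0701 to 0.0839, and at 1.3 FPKM in double replicate 1 against 1.85 to 1.87.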

How the results depend on the processing

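Called genes numbered 10 with the replicate block. Without the block 7 were called, all among the 10, with 1 below 0 in place of 3, and with the number as a random effect 7 and 1. A block of replicates 1 and 2 against 3 and 4 gave 12 calls, with all 10 among them, 8 above and 4 below 0. Replicates 1 and 2 alone gave 3 calls, 3 above and 0 below 0; replicates 3 and 4 alone gave 13, of which 7 below 0. Additivity on the FPKM scale gave 4, 4 above and 0 below. Array weights gave 12, with 5 below 0. Leaving out replicates, 5 to 12 were called, 5 to 8 above and 0 to 5 below 0.

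Of 1464 values of named genes under 35 alternatives 1367 kept sign and side of the threshold, 67 lost the call, 16 gained one and 14 reversed, none of them called. Reversed were F3H (−0.038), FLS1 (−0.0093) and TT5 (−0.031) in replicates 3 and 4 alone, HOL1 (8.23e-04) in replicates 1 and 2 alone, and ORA47 there (0.15). With replicates left out HOL3 ranged from −0.14 to 0.066, ORA47 from −0.89 to 0.046 and MCTP3 from −0.14 to 0.065, and MCTP3 was at 0.0037 with median-of-ratios scaling and 0.0075 with quantile normalization. AT5G24240 was called in all 35 settings, HOL2 and MRD1 in 34 each, AT4G04223 in 33, AT4G08093 in 32 of 34, AT2G41650 in 31, FSD1 in 29, AT5G35935 in 28 of 34, AT5G38005 in 13 and AT3G45160 in 12. On the FPKM scale 6 calls were lost, those of AT5G35935, AT2G41650 and AT4G04223 among them (adjusted p = 0.865, 0.2505 and 0.538 in limma); the cause was not tested. Genes with an expectation below 0 numbered 16, 16 to 33 with replicates left out, 9 with a pseudocount of 0.1, 396 with the filter above 0 and 6 with that at 5 FPKM. Without read counts, low levels such as those of AT4G08093 cannot be given a counting error.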
